A study of Mus musculus with 8 samples.

Results

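The vascular growth factors and receptors described here are the 10 mouse genes Vegfa, Vegfb, Vegfc, Flt1, Kdr, Flt4, Angpt1, Angpt2, Tek and Tie1, chosen by name. They were read by every probe on the array that carries one of these gene names, 20 of the 41174 noncontrol probes and 10 of the 27962 gene names or identifiers they carry. The RNA was total oviduct RNA from adult female CD-1 mice, an outbred strain, measured on 8 one-colour (Cy3) Agilent whole mouse genome arrays. In the control group (n = 4 arrays) pups had received corn oil by subcutaneous injection on postnatal day (PND) 1 to 5, and in the Gen group (n = 4) they had received genistein, a phytoestrogen of soy, at 50 mg/kg/day in corn oil on the same days. All females of both groups were superovulated and mated at 6 to 8 weeks of age, and the oviducts were taken on gestation day (GD) 2, 48 hr after human chorionic gonadotropin, with the embryos removed. The comparison asks what differed in the adult oviduct weeks after the last injection.

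Vascular endothelial growth factors (VEGFs) are secreted ligands that bind receptor tyrosine kinases on endothelial cells, the cells that line blood and lymph vessels. Vegfa drives the sprouting and permeability of blood vessels through Kdr (VEGFR2), its main signalling receptor, while Flt1 (VEGFR1) binds the same ligand tightly and can hold it away from Kdr. Vegfb binds Flt1, and Vegfc acts through Flt4 (VEGFR3), best known for the growth of lymphatic vessels. Angiopoietins act later, on the stability of vessels already formed: Angpt1, made mostly by cells around the vessel, activates the endothelial receptor Tek (Tie2), Angpt2 often opposes it, and Tie1 is a relative of Tek that modulates its signal. In the female reproductive tract and the ovary, vessels grow and regress with each cycle.

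The arrays read each gene through single-stranded probes of 60 bases. The 3 probe sequences below are shown because the results for their genes turn on how dim a probe is (Angpt1) or on a receptor followed against other endothelial genes (Tie1). They are printed in lower case, 5′ to 3′, as the array design gives them, and their positions are on the mm7 build of the mouse genome, all on the minus strand.
Angpt1, brighter probe, chr15:42434991-42435050: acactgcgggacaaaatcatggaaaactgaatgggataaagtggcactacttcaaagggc
Angpt1, dimmer probe, chr15:42504318-42504377: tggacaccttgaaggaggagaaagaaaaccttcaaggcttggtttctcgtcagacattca
Tie1, only probe, chr4:117847966-117848025: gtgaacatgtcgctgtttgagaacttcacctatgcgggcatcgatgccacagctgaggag
Each of these sequences has at least 1 reading frame without a stop codon. The printed Angpt1 probes lie 69327 bases apart on the genome.

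Of the 20 probes, 17 were well above background on at least 4 of the 8 arrays and were tested, and these cover all 10 genes. All 8 arrays detected 15 of them, for 9 genes, the exception being Angpt1. The other 3 probes, 2 of the 5 for Flt1 and 1 of the 2 for Kdr, were not well above background on any array, so no level or fold is given for them. No probe was saturated. The tests ran over all 29560 probes that passed the same detection rule, with p-values adjusted by the Benjamini-Hochberg method in limma.

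Facts of the whole series bear on every value below. Control arrays were all on 1 slide and Gen arrays on a second one, and an effect of the slide cannot be told apart from one of treatment. Between 25391 and 28949 noncontrol probes were well above background on the control arrays and between 29539 and 31486 on the Gen arrays. Some lists of genes used as markers of other cell types also had higher signals on the Gen arrays, and cells were not counted. The mean of 13 genes of ovarian steroidogenic cells was 432 to 1053 on control arrays and 1070 to 3024 on Gen arrays. The mean of 16 macrophage markers was 3853 to 5074 against 5026 to 7354, and the mean of 12 B cell and plasma cell markers was 374 to 728 against 870 to 1920. The part of these differences in the results below was not tested.

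None of the 10 genes and none of the 17 tested probes passed an adjusted p of 0.05 in Gen-treated mice against controls, where 0.900% of all probes tested did (266 of 29560). Before adjustment 1 of the 17 probes had a p under 0.01, for Angpt1, where 7.16% of all probes did, and 2 had a p under 0.05, for Angpt1 and Vegfc, where 19.0% did. The control and Gen arrays did not overlap at 1 of the 17 probes, the same Angpt1 probe, against 12.4% of all probes. By the brightest tested probe of each gene, 9 genes had a higher mean in the Gen group and 1, Vegfb, a lower one. Their median log2 fold change was 0.29, and that of all probes tested was 0.02. Without Gen 2, 7 genes had a higher mean and the median was 0.16. In whole oviduct RNA, fewer cells of a type and less RNA per cell cannot be told apart, and the same holds for more. Signals below are scaled processed signals, averaged on the log2 scale, and each probe is compared only with itself.

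**Figure D1:**
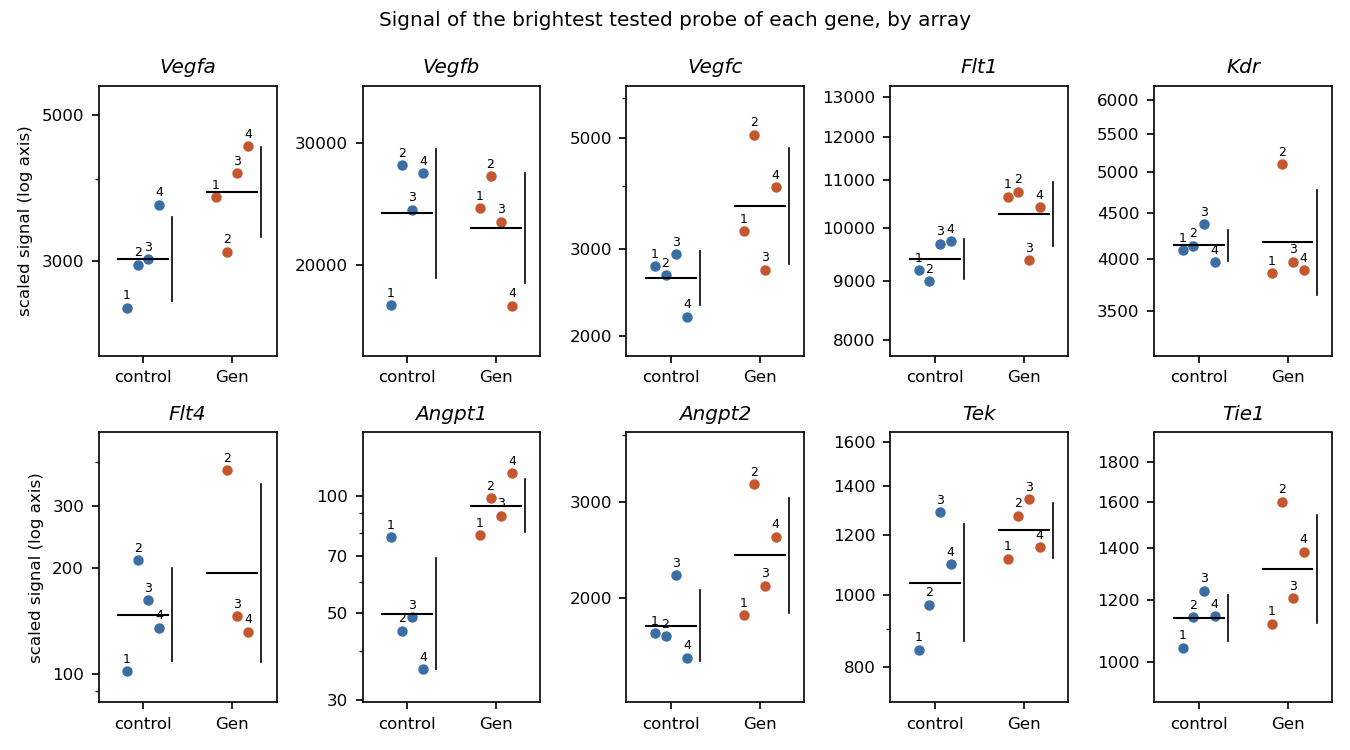
Scaled signal (log axis, a different range in each panel) of the brightest tested probe of each of the 10 genes on the control arrays (blue) and the Gen arrays (orange), numbered by replicate. Horizontal bars are group means and vertical bars 1 SD, both on the log2 scale; Flt4 has 3 Gen values because the spot of Gen 1 was an outlier. The groups stand apart only for Angpt1 (36.0 to 78.1 against 79.0 to 114).

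Of the ligands, Vegfa, the chief angiogenic factor, had a higher mean in the Gen group at the probes near the end of the gene and a lower mean at the upstream probe. At the brightest probe the control signals were 2552, 2966, 3020 and 3654, and the Gen signals were 3750, 3103, 4078 and 4478. Gen 1, Gen 3 and Gen 4 were above every control array, and Gen 2 lay among the controls. Its log2 fold change was 0.34 (standard error 0.15, 95% interval -0.01 to 0.69, limma adjusted p = 0.278). The next probe, 1125 bases away and printed as 10 spots on each array, gave 0.36 (standard error 0.16, limma adjusted p = 0.279). At the upstream probe, the control signals were 508, 680, 697 and 786 and the Gen signals 707, 545, 627 and 495, a log2 difference of -0.17 (standard error 0.17, limma adjusted p = 0.613).

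The Vegfa probes therefore pointed in opposite directions, and their difference within each array was compared, a test added after the values were seen. The log2 ratio of the brightest probe to the upstream probe was larger by 0.50 in the Gen group, without overlap between groups (exact two-sided permutation test, n = 4 and 4, p = 0.0286, the smallest p this design allows). Over the 9 pairs of tested probes within a gene the adjusted value was 0.171, so the difference did not pass. A single pair at the smallest p cannot pass over 9 pairs, so this correction cannot decide the question. The ratio of the 10-spot probe to the upstream probe was larger by 0.52 (exact permutation p = 0.0571, adjusted 0.171). The files do not pair these probes with transcript variants of Vegfa, and no level of a variant was measured.

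Vegfb, a ligand of Flt1, was the 1 gene with a lower Gen mean. Its control signals were 17520, 27864, 24053 and 27147, and its Gen signals were 24189, 26841, 23121 and 17497. Control 1 and Gen 4 were similarly low and the other 6 arrays lay together, so the groups overlapped throughout. On the log2 scale the fold change was -0.07 (standard error 0.19, 95% interval -0.50 to 0.36, limma adjusted p = 0.863), and the second probe, 285 bases away, gave -0.12 (limma adjusted p = 0.593). Without scaling between arrays the Vegfb value was 0.17, where the median of all probes also moved, to 0.26.

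Vegfc, the lymphangiogenic ligand, had the second largest mean difference of the 10 genes. Control signals were 2763, 2655, 2924 and 2193, and Gen signals were 3256, 5075, 2720 and 3979. Gen 2 was the highest array and Gen 4 the next, while Gen 3 lay among the controls. This was a log2 fold change of 0.48 (standard error 0.20, 95% interval 0.03 to 0.93), with an unadjusted p of 0.0392 and a limma adjusted p of 0.239. Without Gen 2 it was 0.32, with a limma adjusted p of 0.339.

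Angpt1, the activating ligand of Tek, was read close to the detection limit, and had the largest difference of the 10 genes except under another background correction, described below, where Vegfa and Vegfc had larger ones. At its brighter probe the control signals were 78.1, 45.1, 48.9 and 36.0, and the Gen signals were 79.0, 98.6, 88.9 and 114. Every Gen array was above every control array, although Gen 1 exceeded control 1 by less than 1 unit of signal. The difference was 0.92 on the log2 scale (standard error 0.23, 95% interval 0.38 to 1.45), or 1.89-fold, with an unadjusted p of 0.00412 and a limma adjusted p of 0.105. The exact permutation test gave p = 0.0286, the smallest it can give with 4 against 4.

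The Angpt1 difference was close to the detection limit, and its call changed with the processing. The brighter probe was well above background on 3 of 4 control arrays and all 4 Gen arrays, and under another background correction (normexp) the log2 fold change was 0.46 in place of 0.92 (limma adjusted p = 0.131). Without control 1 it was 1.13, with a limma adjusted p of 0.0380, and with every noncontrol probe tested, where 16.2% of all probes passed, its limma adjusted p was 0.0360. The dimmer probe was well above background on 0 of 4 control arrays and all 4 Gen arrays. It met the detection rule only through the Gen arrays, so its direction is no separate support for a higher Angpt1 signal. Its control signals were 46.3, 35.3, 35.1 and 25.4 and its Gen signals 33.8, 54.4, 55.9 and 64.3, with Gen 1 among the controls. The control group has only a bound there, which puts the ratio of the measured group means at 1.21 or more. That ratio takes no account of the spread between arrays. The groups overlapped, and the 95% interval of the log2 fold change, from the measured signals, was -0.006 to 1.10 (limma adjusted p = 0.267). No minimum rise is therefore established.

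Angpt2, the context-dependent antagonist of Tek, had the third largest difference. Control signals were 1720, 1696, 2200 and 1547, and Gen signals were 1858, 3244, 2103 and 2592. Gen 2 and Gen 4 were above all controls, and Gen 1 and Gen 3 were below control 3. On the log2 scale Angpt2 differed by 0.43 (standard error 0.19, 95% interval -0.01 to 0.87, limma adjusted p = 0.271), and it was 0.29 without Gen 2.

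Of the receptors, Kdr had the closest group means. Its probe, printed as 10 spots on each array, gave control signals of 4089, 4138, 4374 and 3966 and Gen signals of 3857, 5099, 3971 and 3887. The group means were 4139 and 4174, a log2 fold change of 0.01 (standard error 0.12, 95% interval -0.25 to 0.28, limma adjusted p = 0.965). Gen 2 stood far above the other arrays. Gen 1 and Gen 4 were below all controls, and Gen 3 was below all controls but control 4. Without Gen 2 the log2 fold change was -0.08 (limma adjusted p = 0.631).

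Flt1, the decoy-like receptor of Vegfa and Vegfb, had the smallest SD within groups of the 10 genes (0.08 on the log2 scale). Control signals at the brightest probe were 9190, 8996, 9691 and 9742, and Gen signals were 10648, 10755, 9374 and 10426. Gen 3 lay among the controls and the other 3 Gen arrays were above all of them. Its mean difference on the log2 scale was 0.13 (standard error 0.09, 95% interval -0.08 to 0.34, limma adjusted p = 0.460). A probe 73 bases away gave 0.28 (limma adjusted p = 0.288). Another Flt1 probe, 75990 bases away and nearer the start of the gene, gave -0.01 (limma adjusted p = 0.989). It is annotated to a different transcript record.

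Flt4, the receptor of Vegfc, had the widest spread. Control signals were 102, 211, 163 and 136, and the Gen signals were 380, 146 and 132 on Gen 2, Gen 3 and Gen 4. The spot of Gen 1 was marked as an outlier in the scanner output and the fit dropped it. Its log2 fold change was 0.40 (standard error 0.41, 95% interval -0.56 to 1.35, limma adjusted p = 0.624). Without Gen 2 it was -0.09, and with outlier spots kept, so that Gen 1 counted, it was 0.61 (limma adjusted p = 0.437).

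Tek and Tie1, the angiopoietin receptor and its relative, had similar small differences. Tek signals were 844, 969, 1290 and 1099 on the control arrays and 1117, 1276, 1343 and 1157 on the Gen arrays, a log2 fold change of 0.23 (standard error 0.14, limma adjusted p = 0.414). Tie1 signals were 1043, 1141, 1233 and 1144 on the control arrays and 1119, 1602, 1206 and 1382 on the Gen arrays, a log2 fold change of 0.21 (standard error 0.13, limma adjusted p = 0.420). The groups overlapped for both genes; Tek was lowest on control 1 and control 2, whereas Tie1 was highest on Gen 2 and Gen 4. A second Tek probe, 132374 bases upstream and annotated to a different transcript record, gave -0.07 (limma adjusted p = 0.863).

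**Figure D2:**
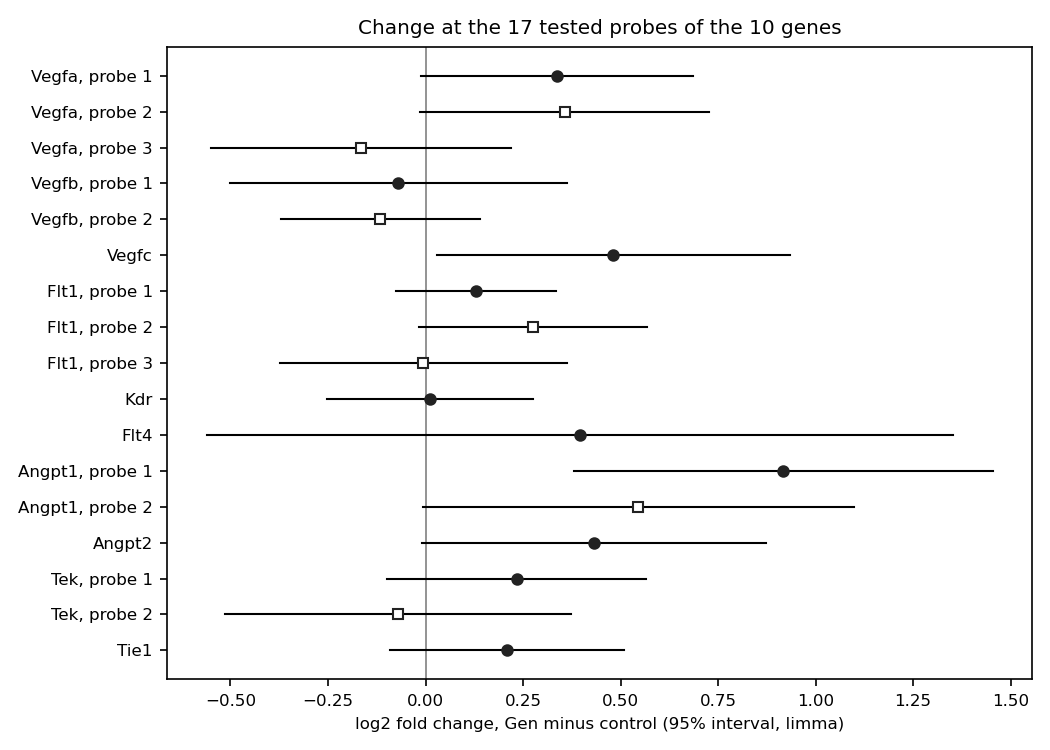
Log2 fold change (Gen minus control, x axis) with its 95% interval from limma at each of the 17 tested probes. Filled circles are the brightest probe of each gene and open squares the others; the intervals of 15 probes include 0, those of Vegfc and of Angpt1 probe 1 do not, and none passes after adjustment.

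Ligands of one receptor, and receptors of one ligand, can shift against each other where neither passes alone, so 5 pairs were compared as log2 differences within each array. The Angpt2 signal relative to Angpt1, the opposing ligands of Tek, was lower in the Gen group by a log2 difference of -0.49 (exact permutation p = 0.143, adjusted over the 5 pairs 0.714), and by -0.040 under normexp. Kdr relative to Flt1 differed by -0.12 (exact permutation p = 0.286, adjusted 0.714) and Vegfc relative to Vegfa by 0.14 (exact permutation p = 0.743, adjusted 0.857). Flt4 relative to Kdr differed by 0.35 over 7 arrays (exact permutation p = 0.457, adjusted 0.762), and by 0.60 with outlier spots kept. Tek relative to Tie1 differed by 0.03 (exact permutation p = 0.857, adjusted 0.857). In each pair the groups overlapped, and none of the 5 differences passed the test. With so few arrays a single pair cannot pass after adjustment over 5 pairs, even where the groups stand apart.

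Markers of endothelial cells were used as a measure of endothelial RNA on each array. Any signal of these genes from other cells was not measured. The mean of 30 endothelial markers, none of them among the 10 genes, was 4884, 4917, 5240 and 4940 on the control arrays and 4988, 6271, 5136 and 6477 on the Gen arrays. Gen 2 and Gen 4, the arrays highest in Vegfc, Angpt2 and Tie1, were also the highest in these markers, while Gen 1 and Gen 3 were within the range of the controls. Of 31 markers tested, 26 had a higher and 5 a lower Gen mean, with a median log2 fold change of 0.20, and none passed the adjusted test. The brightest were Cd34, with a log2 fold change of -0.02, and the water channel gene Aqp1, with 0.38 (limma adjusted p = 0.259). The groups were apart with higher Gen signals for 3 of the 31 markers, where 5.92% of all probes were. They were apart with lower Gen signals for 1, Sox17 (-0.62, limma adjusted p = 0.105), where 6.43% were.

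Each of the 10 genes was then taken relative to the endothelial mean of its own array. Tie1 differed between groups by 0.02 (exact permutation p = 0.800), and its SD within groups was 0.09 relative to the endothelial mean and 0.18 without it. The SD within groups of Vegfc was 0.21 relative to the mean and 0.30 without it, and that of Angpt2 was 0.19 and 0.29. The spread of Vegfa was 0.26 and 0.22, of Vegfb 0.34 and 0.29, and of Flt1 0.13 and 0.08, larger when taken relative to the endothelial mean. Kdr was lower in the Gen group by -0.17 relative to the endothelial mean (exact permutation p = 0.0571), most on Gen 4, and by -0.076 without Gen 4. Angpt1 was higher by 0.73 (p = 0.0857), Vegfc by 0.30 (p = 0.114) and Angpt2 by 0.25 (p = 0.114), each by the same exact permutation test. Under normexp the Angpt1 value was 0.27, and without Gen 2 that of Vegfc was 0.19 and that of Angpt2 0.15. All 4 of these have an adjusted value of 0.286 over the 10 genes, and none of the 10 passed. A single gene at the smallest p this test allows cannot pass that adjustment.

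**Figure D3:**
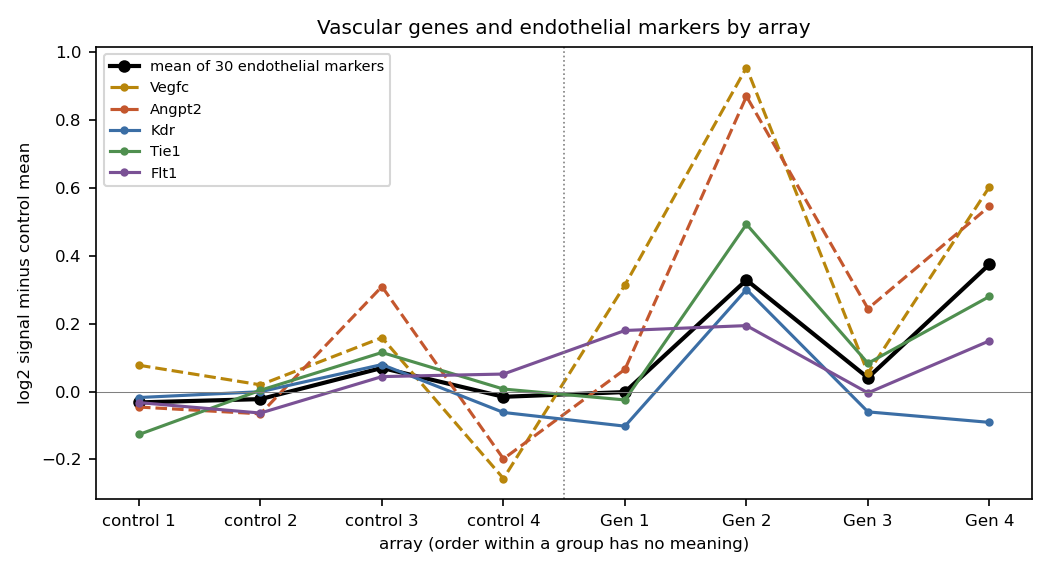
Log2 signal minus the mean of the control arrays (y axis) on each of the 8 arrays for the mean of 30 endothelial markers (thick black line), Vegfc, Angpt2, Kdr, Tie1 and Flt1. Tie1 follows the markers, Vegfc and Angpt2 peak with them on Gen 2 and Gen 4, and Kdr is above the control mean on Gen 2 but below it on the other 3 Gen arrays.

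The wider VEGF and angiopoietin pathway was described by 32 other genes, of which 31 had a tested probe. No gene passed, 17 had a higher and 14 a lower Gen mean, and the median log2 fold change was 0.04. The co-receptors Nrp1 and Nrp2, which present VEGFs to the receptors, had log2 fold changes of 0.13 and 0.12, the ligand Figf (VEGF-D) -0.15 and the angiopoietin Angpt4 -0.01, all 4 named for their roles after their values were seen. The brightest genes were Timp3, an inhibitor of metalloproteinases that also blocks VEGF from binding Kdr, at -0.40 (limma adjusted p = 0.127), and Serpinf1, an antiangiogenic secreted protein, at -0.05 (limma adjusted p = 0.912).

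The largest differences in this list, singled out after their values were seen, were of a further ligand and of a gene that acts on Vegfc. Pgf, the placental growth factor, which binds Flt1, was 1661 to 3384 on control arrays and 729 to 1292 on Gen arrays, without overlap. Its log2 fold change was -1.18 (standard error 0.25, limma adjusted p = 0.0740). Ccbe1, needed for processing of Vegfc to its active form, was 204 to 310 on control arrays and 458 to 974 on Gen arrays, also without overlap, at a log2 fold change of 1.14 (standard error 0.25, limma adjusted p = 0.0784). The groups were also apart, with lower Gen signals, for Timp3, for Col18a1, whose product is cut to endostatin (-0.56, limma adjusted p = 0.124), and for Ptprb, the endothelial phosphatase that acts on Tek (-0.34, limma adjusted p = 0.147). None of these 5 passed the adjusted test. Of the 31 genes, the groups were apart for 1 with higher Gen signals, where 5.92% of all probes were, and for 4 with lower ones, where 6.43% were.

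Genes that VEGF induces in endothelial cells, or that mark the tip cells of growing sprouts, differed both ways. Of 18 tested, 7 had a higher and 11 a lower Gen mean, and the median log2 fold change was -0.08. The adjusted test called 1 of the 18, where it called 0.900% of all probes tested. Kcne3, a potassium channel subunit that is also made by epithelia, fell from a mean of 72571 (69940 to 78607) to 30994 (25869 to 37301), a log2 fold change of -1.23 (standard error 0.14, limma adjusted p = 0.0245), a call that remained in 6 of the 8 fits that left out 1 array. It was lost without control 3 (limma adjusted p = 0.0655), without Gen 4 (0.0647) and without scaling between arrays (0.0790). Dll4, the Notch ligand of tip cells, had a log2 fold change of -0.49 (limma adjusted p = 0.0939), and Jag1, a Notch ligand that opposes it, -0.54 (limma adjusted p = 0.0853). Pdgfb, by which sprouts recruit pericytes, had 0.66 (limma adjusted p = 0.0732), and Unc5b, a netrin receptor of vessels, 0.65 (limma adjusted p = 0.0971). The groups did not overlap for any of these 4, which were named after their values were seen. Over the 18 genes the groups were apart for 2 with higher Gen signals, Pdgfb and Unc5b, and for 4 with lower ones, Kcne3, Dll4, Jag1 and Notch1, where 5.92% and 6.43% of all probes were. After Kcne3 the brightest gene of this list was Hey1, with a log2 fold change of -0.15 and overlapping groups (limma adjusted p = 0.674).

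Of 8 lymphatic endothelial markers, 5 had a higher and 3 a lower mean in the Gen group. The adjusted test called 1 of the 8, where it called 0.900% of all probes tested. Pdpn, a mucin-type membrane protein of lymphatic endothelium that other cells also carry, fell from a mean of 1373 (1175 to 1475) to 812 (744 to 906), a log2 fold change of -0.76 (standard error 0.12, limma adjusted p = 0.0372), and the call was lost in 7 of the 8 fits that left out 1 array and without scaling. The brightest of the list, Thy1 and Ccl21a, had log2 fold changes of -0.16 and 0.16. Prox1, the transcription factor that sets lymphatic identity, had a log2 fold change of 0.36 (limma adjusted p = 0.629) and Lyve1, a hyaluronan receptor, -0.15 (limma adjusted p = 0.777); both were named as defining markers after their values were seen. Of 11 pericyte markers 7 were higher, with a median log2 fold change of 0.08, and none passed. The 9 hypoxia-inducible factors and regulators, which set Vegfa transcription in low oxygen, had 2 higher and 7 lower, with a median of -0.21, and of 21 hypoxia-induced genes 10 were higher and 11 lower, with a median of -0.05 and none that passed. The brightest of the latter, Aldoa and Ldha, both enzymes of glucose use, had log2 fold changes of -0.12 and 0.00. The groups were apart, with lower Gen signals, for 3 of the 21, named after their values were seen: Pfkfb3, a regulator of glycolysis (-0.93, limma adjusted p = 0.0759), the glycolytic enzyme gene Pgk1 (-0.46, limma adjusted p = 0.115) and the glucose transporter gene Slc2a1 (-0.38, limma adjusted p = 0.178). They were apart with higher Gen signals for 1, the kinase gene Pdk1 (0.36, limma adjusted p = 0.130). Over all probes tested the groups were apart with lower Gen signals at 6.43% and with higher ones at 5.92%. Under normexp Pfkfb3 passed, with a limma adjusted p of 0.0441.

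**Figure D4:**
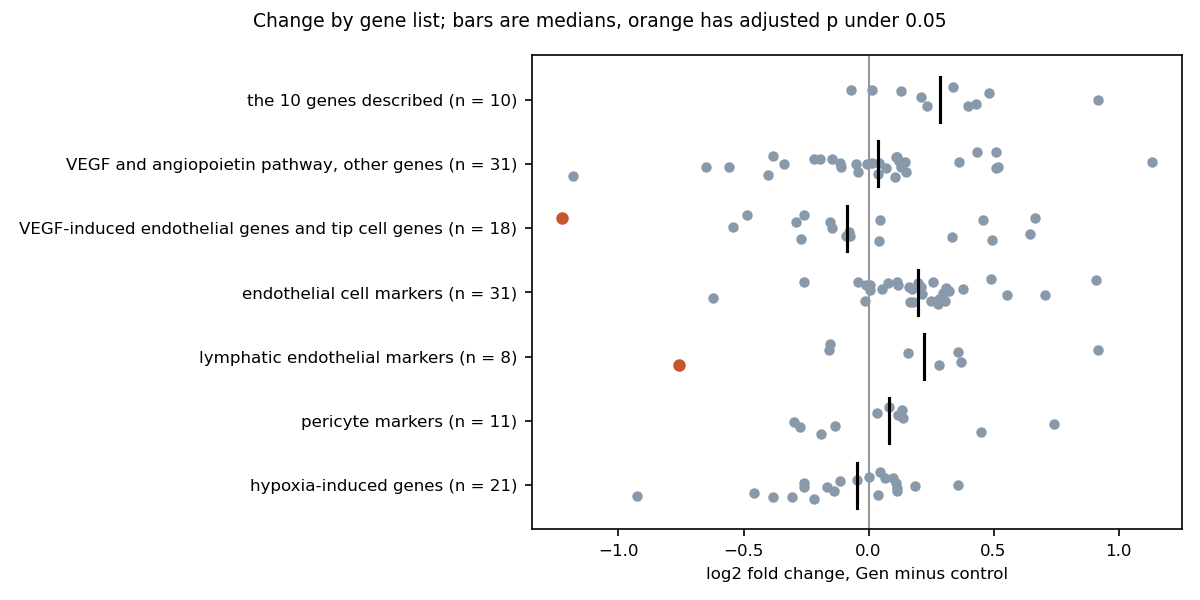
Log2 fold change (Gen minus control, x axis) of each tested gene, in the 10 genes described and in 6 related gene lists. Black bars are list medians, and the 2 orange points, Kcne3 and Pdpn, are the only ones with an adjusted p under 0.05.

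The genes whose pattern over the 8 arrays was most like that of Kdr, among 14258 genes measured on all arrays, were Asap1 (Pearson r = 0.97), Bace2 (0.94) and Aard (0.93). For Vegfa they were Gm671 (0.98), Brat1 (0.98) and Pik3cg (0.96). These are descriptions over 8 points that share their arrays and slides, and the highest values among 14258 genes are high by selection.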

How the data were processed

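Oviduct RNA was measured on 8 one-colour Agilent arrays, 4 control and 4 Gen, grouped by the sample labels; dose, age and time came from the study's methods. The labels and methods describe the 4 replicates of a group as biologically independent. The 10 genes and the gene lists were chosen with earlier results of these data known. The authors deposited the scanner output of Agilent Feature Extraction 9.5, whose processed signal is a linear intensity after background adjustment and detrending, not scaled between arrays. The series table repeats these deposited intensities. Rosetta Resolver processing was not applied. Probe positions are those in the files (mm7). The sequence of the upstream Vegfa probe is not reported here.

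The 1639 control spots of 45018 and outlier spots were left out, log2 intensities were averaged over a probe's spots, and arrays were then scaled to a common 75th percentile. Groups were compared with limma 3.58.1 in R 4.3.3 (lmFit, eBayes), with Benjamini-Hochberg adjustment over 29560 probes well above background on at least 4 of 8 arrays. The 11614 dimmer probes were left out, since in a fit on all probes 44.2% of those tested were called lower on the Gen arrays and this moved every adjusted p. The number of arrays limits the precision. A gene is represented by its brightest tested probe. Differences within arrays were tested by exact two-sided permutation of 4 against 4, whose smallest p is 0.0286. The limma scripts were tested on simulated data. Tables were handled with the data.table (version 1.17.8) and pandas (version 2.3.3) packages, and plots made with matplotlib 3.10.9.

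Genes named are all 10 members at every probe, in each other list those that passed the test (at most 4) and the 2 brightest of the pathway, VEGF-induced, endothelial, lymphatic, hypoxia-induced and steroidogenic lists, and the 3 genes most correlated with Kdr and Vegfa; others are said to be named after their values were seen. Gene names came by RefSeq accession for 22969 probes and by name or synonym for 9750, while 8455 kept their name from the files; members were taken by the name in the files. Alternatives run were quantile normalization, unscaled arrays, normexp (offset 50), no filter on dim probes, a stricter one, the series table, the replicate number as a block, outlier spots retained, eBayes with trend and robust options, the methods' t-test, all probes of a gene averaged, and each array left out.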

Additional observations from a re-analysis of the deposited data

Results flagged for a closer look

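Kdr on Gen 2 had a signal of 5099, and its gap to the nearest of the other Gen arrays, whose signals were 3857 to 3971, was larger than Dixon's 95% critical value for 4 values allows. This was 1 of 33 groups of 4 arrays tested, and chance gives about 1 in 20. Gen 2 was also the highest array for Vegfc, Angpt2, Flt4 and Tie1 and the second highest in the endothelial marker mean, and the part of that mean in the Kdr value was not tested.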

How the results depend on the processing

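Over the settings run, no tested member passed except Angpt1. Of the 17 tested member probes and the 10 genes, 1 each was called without scaling, with all noncontrol probes tested and without control 1, with a range of 0 to 1 over the fits that left out 1 array. Angpt1 was then 1.16 (limma adjusted p = 0.0391) without scaling, where the median of all probes moved to 0.26 and that of the members to 0.53, so the members stood as far above all probes as before. With all noncontrol probes tested, 16.2% of all probes passed. The Kdr probe not above background on any array was then a second member probe under 0.05, with a limma adjusted p of 0.0236. Pgf (0.0237), Ccbe1 (0.0245), Dll4, Jag1, Pdgfb, Unc5b and Pfkfb3 also passed in that fit. So did the endothelial markers Sox17 (log2 fold change -0.62), Fli1 (0.55) and Bmx (0.49) and the pericyte marker Anpep (0.74). Ccbe1 passed without scaling too.

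Probes called over all probes, 266, became 1026 without scaling, 486 with normexp, 6674 with all noncontrol probes, 407 with an intensity trend and robust fit, and 2 to 275 when 1 array was left out. The methods' t-test called 1747 probes at an unadjusted p under 0.01 and 11 after Benjamini-Hochberg adjustment, and no member in either count. With the replicate number as a block, 3 probes were called and no member. Deviations from the group mean of each probe were correlated between same-numbered arrays. The values were -0.08, 0.04, -0.03 and -0.13, so these deviations show no pairing by number.

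Kcne3 and Pdpn were called in 8 of the 11 settings that kept all arrays, and not without scaling (limma adjusted p = 0.0790 and 0.441), by the methods' t-test or with the block.

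Values that changed sign had not passed in any setting, except Bmx with all noncontrol probes tested. Without scaling, the log2 fold change of Vegfb was 0.17, of Aldoa 0.12, of Cd34 0.22 and of Serpinf1 0.19. Cd34 was 0.067 with quantile normalization, and under normexp Bmx, an endothelial kinase, was -0.026 (0.49 with the main setting) and Ldha -0.099. The pair difference of Vegfc to Vegfa was -0.011 under normexp, and that of Tek to Tie1 was -0.13 with the mean of all probes. Relative to the endothelial mean, Tie1 was -0.017 with quantile normalization and -0.029 under normexp, Flt1 was 0.053 under normexp, and with the mean of all probes Vegfa was -0.0100 and Tek -0.10.

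With 1 array left out, log2 fold changes ranged from -0.084 to 0.050 for Kdr, -0.22 to 0.054 for Vegfb, -0.087 to 0.67 for Flt4, -0.17 to 0.19 for Cd34, -0.20 to 0.081 for Serpinf1, -0.12 to 0.096 for Ldha and -0.21 to 0.0019 for Aldoa. Pair differences ranged from -0.062 to 0.099 for Tek to Tie1, -0.11 to 0.32 for Vegfc to Vegfa and -0.012 to 0.55 for Flt4 to Kdr. Relative to the endothelial mean the ranges were -0.30 to 0.49 for Flt4, -0.047 to 0.14 for Tek, -0.025 to 0.061 for Tie1 and -0.13 to 0.00090 for Flt1. The cause of these changes was not tested. Signal over background limits Angpt1, whose dimmer probe no control array detected.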

Other observations

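Outside the vascular lists, 2 of 16 macrophage markers passed, where 0.900% of all probes tested did. Mpeg1, a pore-forming protein of macrophages, rose from a mean of 8803 to 14388, a log2 fold change of 0.71 (limma adjusted p = 0.0470), and Itgam, an integrin subunit of myeloid cells, rose from 398 to 666, at 0.74 (limma adjusted p = 0.0449). Of 12 B cell and plasma cell markers 2 passed, Mzb1 at 1.34 (limma adjusted p = 0.0306) and Tnfrsf17 at 1.52 (limma adjusted p = 0.0306), both genes of antibody-secreting cells. The macrophage calls were lost in all 8 fits that left out 1 array, and each B cell call held in 2 of them. The groups were apart with higher Gen signals for 4 of the 16 macrophage markers, where 5.92% of all probes were. They were apart in the same direction for 7 of the 12 B cell and plasma cell markers.

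Of 13 ovarian steroidogenic genes, 10 had a higher mean and none passed. The groups were apart for 4 of the 13, all with higher Gen signals, where 5.92% of all probes were. Over the other settings run, 0 to 7 genes of this list were called. Hsd3b1, a steroid dehydrogenase, had means of 2693 and 48830, a log2 fold change of 4.18 (standard error 0.95, limma adjusted p = 0.0808), and Scarb1, the receptor that takes up cholesterol from lipoproteins, had 0.71 (limma adjusted p = 0.215). With all noncontrol probes tested, where 16.2% of all probes passed, Hsd3b1 had a limma adjusted p of 0.0246. The mean of the list was highest on Gen 1 and Gen 2, at 3024 and 2942, while the endothelial mean was highest on Gen 2 and Gen 4. Of 10 smooth muscle markers, 9 had a lower mean in the Gen group and none passed, with a median log2 fold change of -0.30. Of 14 T cell and natural killer cell markers 13 had a higher Gen mean, with a median of 0.49. For 4 of the 14 the groups were apart, all with higher Gen signals, where 5.92% of all probes were. Among these, Cd8a and Cd4 were close to the detection limit. Cd8a was well above background on only 4 arrays, at 10.5 to 32.5 on control arrays and 41.6 to 90.3 on Gen arrays. Its separation is tied to the detection rule and is no separate support. All 4 red blood cell genes tested had a higher Gen mean, with a median of 0.63, and none of either list passed. In 11 ciliated, 9 secretory, 8 squamous, 10 stromal and 7 mast cell markers none passed, with list medians between -0.10 and 0.06. The groups were apart for 1 of the 7 mast cell markers, with lower Gen signals, where 6.43% of all probes were. This was Hdc, named after its value was seen, with a log2 fold change of -0.72 (limma adjusted p = 0.0533).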
